A study of Homo sapiens with 6 samples.

Results

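The 10 named cytosolic aminoacyl-tRNA synthetases were followed across 6 plating densities of MCF10A, an established cell line of non-tumorigenic epithelium from the human breast. The 10 genes, AARS1, EPRS1, GARS1, IARS1, LARS1, MARS1, NARS1, SARS1, WARS1 and YARS1, were taken by symbol from a table of 19775 genes. Of the 10, 9 had at least 1 probe set assigned to a single gene. MARS1, the methionine enzyme, had 3 probe sets, each also assigned to a microRNA gene, and therefore received no value. Dishes of 35 mm received 50K, 100K, 200K, 400K, 600K or 800K cells (K as the labels write it), which spans a 16-fold range, and were cultured for 24 h before RNA extraction. All dishes held the same medium, with 5% horse serum, 20 ng/ml EGF, hydrocortisone, cholera toxin, insulin and gentamicin. An Affymetrix HG-U133 Plus 2 array was hybridised for each density, 6 in all, and the sources used here do not say how many dishes stand behind each.

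The deposited values are ratios of each array to the 50K array, given below as log2 ratios, so that 50K is 0 for every gene. They show change and carry no expression level, so the signal over background is unknown and the identity of the cells cannot be checked by the level of their markers. The median over all 19775 genes lay between 0.02 and 0.05 (log2 ratio) at the 5 densities above 50K. With 1 array per density, single densities are compared without a test, trends were tested over all 6 arrays, and the residuals mix dish-to-dish variation, technical noise and departure from the fitted line. Markers of fibroblasts, endothelial cells and leukocytes are reported with the other gene groups.

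Aminoacyl-tRNA synthetases join each amino acid to its transfer RNAs, the step that fixes the meaning of the genetic code. They fall into class I and class II by the fold of the catalytic domain, and in animal cells several of them sit together in the multisynthetase complex. When amino acids run short, uncharged transfer RNA activates the kinase GCN2, which phosphorylates the initiation factor eIF2. General initiation then slows while the transcription factor ATF4 is translated more, and ATF4, with C/EBP-family partners, binds amino acid response elements of genes for amino acid synthesis, transport and transfer RNA charging. This is background from other work and not a result of these arrays.

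The amino acid response element is commonly written TGATGCAA, and sequences of the promoters that hold these letters are shown because they divide the synthetases by a feature that is not read from the arrays. Promoter windows of RefSeq (GRCh38.p14; 250 bases before and 50 after a start of a gene, with a window for each of several starts) were found for 8 of the 10 genes; LARS1 and YARS1 were not matched. TGATGCAA, on either strand, occurred in 4 of the 8, AARS1, IARS1, MARS1 and NARS1, against 295 of 27305 genes of the table (1.08%). The looser TGATGNAA, of which TGATGCAA is one form, occurred in 5 of the 8, adding GARS1, and in 4.46% of genes. Both were absent from the windows of EPRS1, SARS1 and WARS1. Among other cytosolic synthetases, CARS1 and TARS1 held TGATGCAA (2 of 8), and 0 of 14 mitochondrial synthetases did. Each window below is read 5′ to 3′ on the strand of its gene; capitals mark the match, and TTGCATCA is the reverse complement of TGATGCAA.
AARS1, chr16:70289676-70289703, minus strand: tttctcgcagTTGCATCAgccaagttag
IARS1, chr9:92293693-92293720, minus strand: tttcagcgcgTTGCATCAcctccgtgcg
MARS1, chr12:57488054-57488081, plus strand: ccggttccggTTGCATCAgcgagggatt
NARS1, chr18:57621805-57621832, minus strand: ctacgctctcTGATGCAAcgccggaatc
GARS1, chr7:30594835-30594862, plus strand: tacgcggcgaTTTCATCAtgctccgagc
CARS1, chr11:3057408-3057435, minus strand: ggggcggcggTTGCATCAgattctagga
TARS1, chr5:33440957-33440984, plus strand: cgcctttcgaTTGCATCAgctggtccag
Counted from the start that its window is built on, the match began 187 bases before it in AARS1, 33 in GARS1, 13 in IARS1, 4 in MARS1 and 2 in CARS1, and 14 bases after it in NARS1 and 2 in TARS1. GARS1, CARS1 and TARS1 have 2 windows each. The GARS1 match belongs to the inner start, at position 30594878, and lies inside the gene, 110 bases after the outermost start at 30594735; the TARS1 match also belongs to an inner start and lies 271 bases after the outermost one. The AARS1 match, farthest from the start of its own window, is shown with the 250 bases before that start.
AARS1, chr16:70289507-70289756, minus strand: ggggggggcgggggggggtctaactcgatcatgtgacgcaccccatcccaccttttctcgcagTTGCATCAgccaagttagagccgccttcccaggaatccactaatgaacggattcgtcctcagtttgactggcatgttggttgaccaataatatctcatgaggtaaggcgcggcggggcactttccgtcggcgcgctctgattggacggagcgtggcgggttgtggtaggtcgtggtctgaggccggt
A match is a description of letters and was not measured as a binding site.

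The 9 measured synthetases were at their highest at 400K or 600K and lower again at 800K. At 100K and 200K their median log2 ratio was 0.03 and 0.07. The median reached 0.70, 0.82 and 0.42 at the next 3 densities, 400K, 600K and 800K, which correspond to 1.62-fold, 1.77-fold and 1.33-fold over 50K. All 9 had their highest value at 400K or 600K, as did 27.3% of all genes, and all 9 were lower at 800K than at 600K, as were 63.4% of all genes. By gene mean the peak was at 600K in 7 of them (18.5% of all genes) and at 400K in 2, SARS1 and YARS1 (8.82%). Both SARS1 and YARS1 also have a probe set that was highest at 600K. At 1.5-fold or more over 50K stood 5 of 9 at 400K, 6 of 9 at 600K and 2 of 9 at 800K, against 3.29%, 5.01% and 5.97% of all genes. The 6 that were both highest at 400K or 600K and at least 1.5-fold there compare with 2.41% of all genes. At 100K and at 200K, 0 of 9 reached 1.5-fold.

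**Figure D1:**
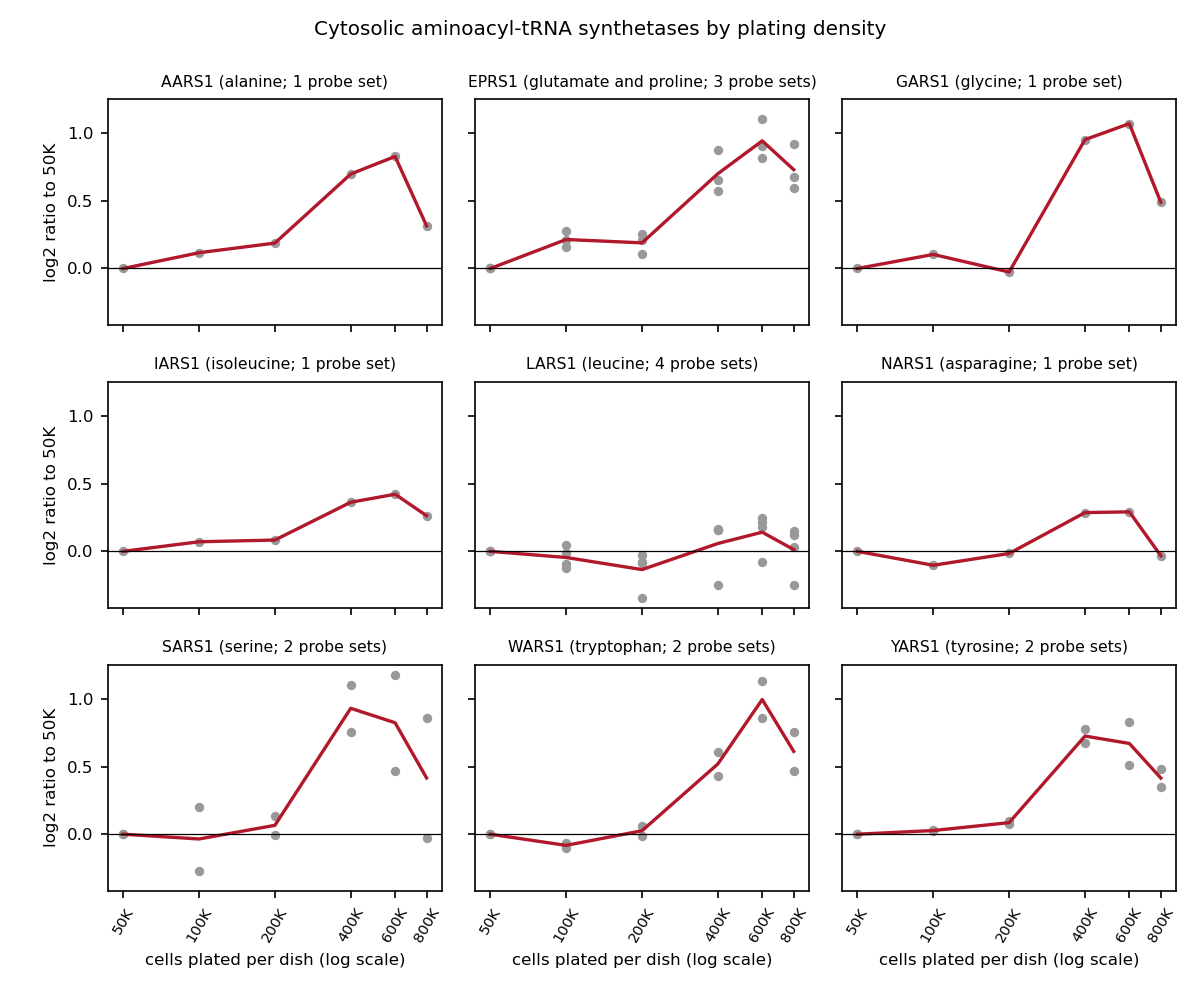
Log2 ratio to the 50K array (vertical axis) against cells plated per dish (horizontal axis, log scale) for the 9 measured synthetases, 1 array per density. Grey points are single probe sets and the red line is their mean. The means are at or below 0.21 up to 200K, highest at 400K or 600K and lower at 800K, and those of LARS1 and NARS1 stay between −0.13 and 0.29.

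The widest step of the median was that between 200K and 400K. At 400K, 3 of 9 genes (GARS1, SARS1 and YARS1) were 1.5-fold or more above their own 200K value, against 1.35% of all genes. The 3 values at 400K, 600K and 800K all lay above the 3 values at 50K, 100K and 200K in 8 of 9 genes, against 13.8% of all genes. The exception was NARS1, whose 800K value lay among the low densities. LARS1 was separated only narrowly, at 0.01 at 800K against 0 at 50K, and its probe sets 222427_s_at and 223888_s_at were not separated. For 0 of 9 did the 3 high values all lie below, against 17.9% of all genes.

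The tests over the 6 arrays called fewer of them. The slope of the log2 ratio per doubling of cells plated, fitted for all genes in limma, passed a Benjamini-Hochberg adjusted p of 0.05 for 3 of 9 genes, EPRS1, WARS1 and IARS1, all rising, against 8.93% of all genes rising; 0 of 9 fell, against 12.4%. Only EPRS1 still passed on arrays centred on their medians, where the adjusted p was 0.0601 for IARS1 and 0.0600 for WARS1. Without the 50K array 0 of 9 passed (adjusted p 0.0611 for EPRS1), and without the 100K, 400K or 600K array 1 of 9 did. In a limma fit of the 3 highest against the 3 lowest densities, 6 of 9 passed (EPRS1, GARS1, IARS1, SARS1, WARS1 and YARS1) against 4.59% of all genes higher and 6.83% lower. That count was 0 without the 50K, 100K, 600K or 800K array, where 0, 0, 0 and 1 of all genes were called higher by limma. At an unadjusted p under 0.05 the same 4 fits held 7 or 8 of the 9, against 9.5%, 10.2%, 9.57% and 9.99% of all genes. A quadratic term in log2 of cells plated passed for 0 genes of 19775 in limma; at an unadjusted p under 0.05 it did for 12.6% of genes and for 0 of these 9.

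Among the class II enzymes, GARS1 (chr7:30594735-30634033 in GRCh38.p14), which charges glycine, had the highest ratio of the set by gene mean. Its log2 ratios were 0.10, −0.03, 0.95, 1.07 and 0.49 from 100K to 800K. The high densities lie clear of the low ones, and the 600K value, 2.10-fold, was the only gene mean in the set past 2-fold. That limit was passed by 1.73% of all genes there. At 400K and 800K, 0 of 9 passed it, against 1.14% and 2.25% of all genes. GARS1 has 1 probe set, 208693_s_at, while the other values at the top of the set are means of several. At 600K, 200802_at of SARS1 (1.18), 200629_at of WARS1 (1.13) and 200843_s_at of EPRS1 (1.11) each read higher than GARS1. Its slope was 0.23 ± 0.09 (SE of the fit over 6 arrays, as for all slopes below) with a limma adjusted p of 0.113. The 3 highest densities exceeded the 3 lowest by 0.81 ± 0.15 (adjusted p 0.0351).

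SARS1 (chr1:109213893-109238182), the serine enzyme, had log2 ratios of −0.04, 0.07, 0.93, 0.82 and 0.42 from 100K to 800K. Its mean peaked at 400K, as that of YARS1 did, while the means of the other 7 genes peaked at 600K. Its slope of 0.21 ± 0.07 did not pass (limma adjusted p 0.107). The mean hides a difference between its probe sets. Probe set 200802_at read 0.76 at 400K, 1.18 at 600K and 0.86 at 800K, while 231894_at read 1.11, 0.47 and −0.03 at the same densities. Tested alone, 200802_at passed with a slope of 0.27 ± 0.06 (limma adjusted p over all probe sets 0.0288) and 231894_at did not (0.14 ± 0.12, adjusted p 0.543).

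AARS1 (chr16:70252298-70289506), the alanine enzyme whose promoter stretch is printed above, had log2 ratios of 0.12, 0.19, 0.70, 0.83 and 0.31 at 100K, 200K, 400K, 600K and 800K. It was 1.78-fold over 50K at 600K and 1.24-fold at 800K, so its 800K value lay closer to its low densities than to 600K. The slope was 0.16 ± 0.06 with a limma adjusted p of 0.110, and it passed when the 800K array was left out (adjusted p 0.0242).

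NARS1 (chr18:57600656-57621836), the asparagine enzyme, had log2 ratios of −0.10, −0.02, 0.29, 0.29 and −0.03 from 100K to 800K. Both middle densities stood above the rest, and 800K was back at the level of 50K. Its slope of 0.06 ± 0.04 had a limma adjusted p of 0.440.

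Among the class I enzymes, WARS1 (chr14:100333790-100376327), which charges tryptophan and is also known as an interferon-inducible gene, had the steepest slope, just above that of GARS1. Its log2 ratios were −0.08, 0.03, 0.52, 1.00 and 0.61 from 100K to 800K. Unlike the means of GARS1, SARS1 and YARS1, that of WARS1 was far lower at 400K than at 600K, 1.43-fold against 1.99-fold over 50K. It rose with density with a slope of 0.24 ± 0.06 (limma adjusted p 0.0398), a call that held without the 200K array but not without any other (adjusted p up to 0.116). Its probe sets, 200628_s_at and 200629_at, read 0.86 and 1.13 at 600K.

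YARS1 (chr1:32775239-32817358), the tyrosine enzyme, had log2 ratios of 0.03, 0.09, 0.73, 0.67 and 0.42 from 100K to 800K. The 3 high densities were well separated from the low ones. The slope of 0.17 ± 0.05 did not pass (limma adjusted p 0.0641), and the 3 highest exceeded the 3 lowest densities by 0.57 ± 0.09 (adjusted p 0.0292). Its probe sets differed in their peak. At 400K and 600K, 212048_s_at read 0.67 and 0.83, while 238760_at read 0.78 and 0.51.

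IARS1 (chr9:92210207-92293697), the isoleucine enzyme, and LARS1 (chr5:146113034-146182650), the leucine enzyme, are class I members of the multisynthetase complex. IARS1 had log2 ratios of 0.07, 0.08, 0.36, 0.42 and 0.26 from 100K to 800K and a slope of 0.10 ± 0.03 (limma adjusted p 0.0420). Its values followed the mean of the other 8 most closely of all (Pearson r = 0.990 over the 6 arrays, which share the 50K baseline), at a smaller amplitude of 1.34-fold at 600K. The IARS1 call held without the 800K array and was lost without any other (adjusted p up to 0.152), and it was lost on the scale of cell number (0.0953) or rank (0.0694). LARS1 had log2 ratios of −0.05, −0.13, 0.06, 0.14 and 0.01 from 100K to 800K, with the lowest r to the others, 0.827. Its slope was 0.03 ± 0.02 (adjusted p 0.521). Of its 4 probe sets, 223888_s_at read −0.25 at 400K where the other 3 read 0.16.

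EPRS1 (chr1:219968600-220046505) carries a class I glutamate enzyme and a class II proline enzyme on a single protein of the same complex. Its log2 ratios were 0.21, 0.19, 0.70, 0.94 and 0.73 from 100K to 800K. At 1.92-fold over 50K at 600K and 1.66-fold at 800K, it had the highest 800K value of the 9. Its slope of 0.22 ± 0.04 had the smallest adjusted p of the set (0.0127 in limma), and all 3 of its probe sets passed when tested alone. The 3 measured complex members thus covered nearly the whole range, 0.14 to 0.94 at 600K, against 0.29 to 1.07 for the 6 enzymes outside the complex. Class I genes spanned 0.14 to 1.00 and class II genes 0.29 to 1.07 at 600K, so neither grouping separated the set.

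At 600K the order was GARS1, WARS1, EPRS1, AARS1, SARS1, YARS1, IARS1, NARS1 and LARS1. With no replicate the only spread at hand is the residual SD of each slope fit. As moderated by limma, which draws it towards that of all genes, it was 0.08 to 0.30. In 6 of the 8 neighbouring pairs the gap at 600K was smaller than the larger moderated residual SD of the pair. The gaps beyond it were those between YARS1 and IARS1 (0.25) and between NARS1 and LARS1 (0.15). The gap between NARS1 and LARS1 was, however, smaller than the unmoderated residual SD of NARS1 (0.17). Of the 17 probe sets behind the 9 genes, 16 were highest at 400K or 600K and 13 had all 3 high densities above the 3 low ones. Counted per gene, 27.3% and 13.8% of all genes did so, and the shares of all probe sets were not computed. Probe sets of the same gene are not independent, so these counts in part repeat those of the genes. Identifiers ending in _s_at or _x_at, which mark probe sets that are not specific to a single transcript, made up 11 of the 17. Without them 5 genes could be measured, of which 3 were 1.5-fold or more over 50K at 600K.

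The other cytosolic synthetases were mixed. Both these genes and the set were chosen with earlier results of these data known, and the difference between them was not tested. In this and the gene groups below, the counts of genes that rose or fell stand against 8.93% and 12.4% of all genes. Of 11 listed, 9 were measured, 0 rose and 3 fell, and their median log2 ratio was −0.08 at 400K and −0.07 at 600K, against 0.02 and 0.05 for all genes. FARSA and FARSB, the subunits of the phenylalanine enzyme, fell together. FARSA had log2 ratios of −0.14, −0.11, −0.57, −0.79 and −0.90 from 100K to 800K and a slope of −0.23 ± 0.04 (limma adjusted p 0.00825). FARSB had −0.10, −0.24, −0.47, −0.78 and −0.54 and a slope of −0.18 ± 0.03 (adjusted p 0.0125; 0.0546 without the 50K array). Both lie below 50K at all 5 densities, the opposite side from GARS1 and EPRS1 at 400K to 800K. HARS1, the histidine enzyme, had a slope of −0.06 ± 0.02 (adjusted p 0.0457), a call that was lost when any 1 array was left out (adjusted p up to 0.160).

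CARS1, the cysteine enzyme, had log2 ratios of 0.19, −0.04, 0.75, 0.81 and 0.33 from 100K to 800K, inside the range of the 9 at each high density, with a slope of 0.16 ± 0.07 (limma adjusted p 0.176). TARS1, the threonine enzyme, was highest at 400K (0.41) and at 0.22 and −0.01 at 600K and 800K (slope adjusted p 0.675). These are also the other cytosolic synthetases whose promoter windows held TGATGCAA. The complex scaffold AIMP1 read −0.10 at 400K and −0.38 at 800K (adjusted p 0.0568).

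**Figure D2:**
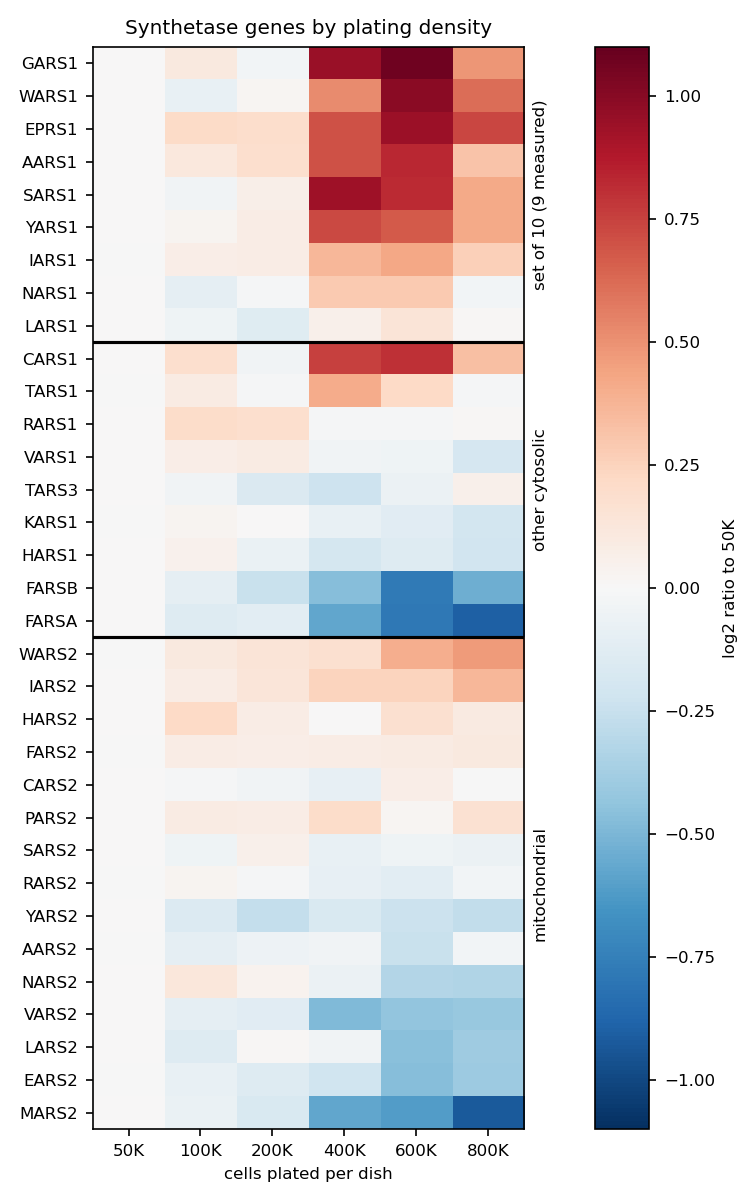
Log2 ratio to the 50K array, shown as colour, for each measured cytosolic and mitochondrial synthetase (rows) at each density (columns). The set of 10 (9 measured) stands at the top and is highest at 400K and 600K, a pattern that CARS1 shares, while FARSA, FARSB and MARS2 are lowest at 600K or 800K.

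The synthetases that charge transfer RNA in mitochondria are encoded by separate nuclear genes for most amino acids. Of 17 listed, 15 were measured; 2 rose (IARS2 and WARS2) and 3 fell (EARS2, MARS2 and VARS2), and 0 were 1.5-fold or more over 50K at 400K, 600K or 800K. Both enzymes of the tryptophan pair and of the isoleucine pair rose, with different peaks on these single arrays. For tryptophan, WARS1 peaked at 600K while WARS2 went on to its highest value at 800K (0.47; slope 0.11 ± 0.02, limma adjusted p 0.0182). For isoleucine, IARS1 was 0.42 at 600K and 0.26 at 800K, whereas IARS2 was 0.24 and 0.37 (slope 0.08 ± 0.01, adjusted p 0.0104). MARS2, the mitochondrial methionine enzyme, fell with a slope of −0.22 ± 0.03 (adjusted p 0.00749), and its cytosolic counterpart MARS1 had no value to set beside it. The call of WARS2 was lost without the 50K, 100K, 600K or 800K array (limma adjusted p up to 0.0771), that of EARS2 without the 50K or 800K array (up to 0.0551) and that of VARS2 without the 50K, 100K or 600K array (up to 0.0730). The difference between the compartments was not tested.

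**Figure D3:**
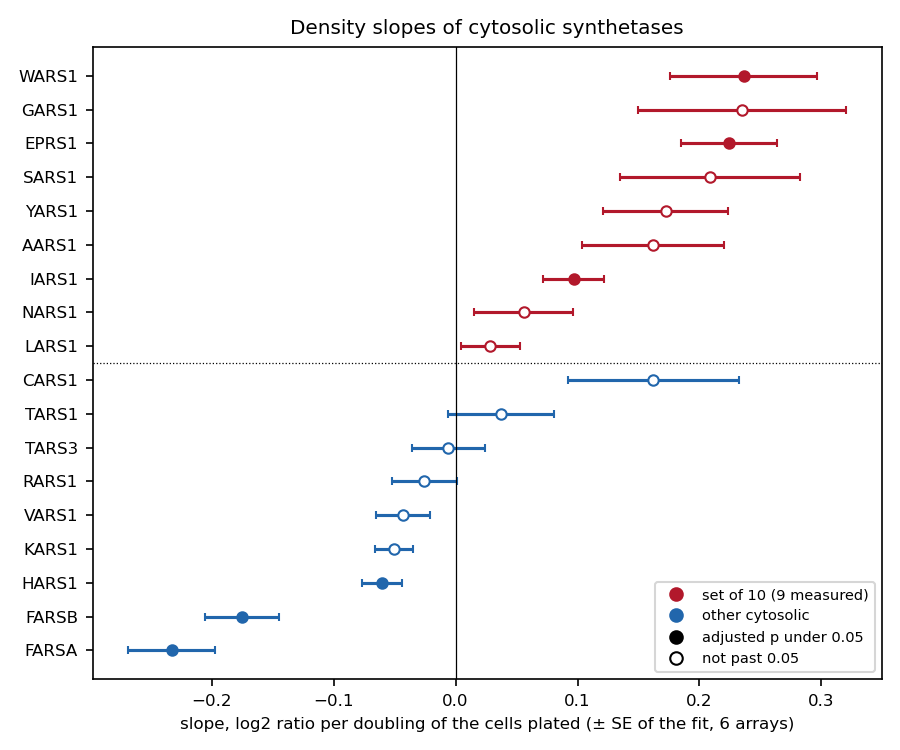
Slope of the log2 ratio per doubling of cells plated (horizontal axis), with its standard error as bars, for every measured cytosolic synthetase (vertical axis, the set of 10 in red at the top, other enzymes in blue below). Filled points passed an adjusted p of 0.05; the 9 slopes of the set lie between 0.03 and 0.24 and 3 are filled, while those of the other enzymes lie on both sides of 0.

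Genes of the ATF4 pathway were set beside the synthetases. ATF4, the factor itself, had log2 ratios of 0.14, 0.05, 0.92, 0.85 and 0.57 from 100K to 800K and a slope of 0.22 ± 0.06 (limma adjusted p 0.0649). As in 8 of the 9 synthetases, its 3 high densities stood above its 3 low ones. Of 9 genes for ATF4 and its partner factors, 2 rose and 0 fell. Those that rose were NUPR1 (slope 0.77 ± 0.11, limma adjusted p 0.00791) and CEBPB (0.17 ± 0.03, adjusted p 0.00722). Of the 9, 8 were highest at 400K or 600K, as were 27.3% of all genes. At 400K and at 600K, 5 of the 9 were 1.5-fold or more over 50K, against 3.29% and 5.01% of all genes. The peaks of DDIT3, CEBPG and ATF3, all at 400K, were small (0.33, 0.16 and 0.14). ATF5 went the other way, at −0.22 at 400K and −0.23 at 600K, with its 3 high densities below its 3 low ones. TRIB3, a pseudokinase that restrains ATF4, read 1.74 at 400K and 0.50 at 800K (adjusted p 0.194). Among 7 eIF2 kinases, phosphatase subunits and eIF2 alpha, 0 rose and 1, EIF2S1, fell (−0.11 ± 0.02, adjusted p 0.0269; up to 0.109 without the 100K, 400K, 600K or 800K array). That call was also lost without probe sets ending in _x_at or _s_at (limma adjusted p 0.101) and with the median of its probe sets (0.0700). GCN2 (EIF2AK4) read −0.19 at 400K and −0.32 at 600K (adjusted p 0.300); its activity is not visible in its RNA.

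Of 18 measured genes for amino acid synthesis and other known ATF4 targets, 7 rose (ASNS, PHGDH, PSAT1, SHMT2, ALDH1L2, CBS and GDF15) and 0 fell. Of the 18, 17 were highest at 400K or 600K, against 27.3% of all genes, on a list chosen with earlier results of these data known. The median log2 ratio of the 18 was 1.13 at 400K, 0.73 at 600K and 0.48 at 800K. PHGDH, which opens serine synthesis, read 0.04, 0.25, 1.72, 2.46 and 2.14 from 100K to 800K (slope 0.67 ± 0.11, limma adjusted p 0.0115). ASNS, which makes asparagine, read 0.26, 0.31, 1.42, 1.80 and 1.497 (0.46 ± 0.08, adjusted p 0.00993), although its probe set without the _s_at or _x_at suffix gave a slope of 0.05 and did not pass. NARS1, the enzyme that charges asparagine, reached 0.29 at 600K against 1.80 for ASNS, and SARS1 0.82 against 2.46 for PHGDH. The slope of GDF15 was −0.0055 without such probe sets, and PSAT1, at an adjusted p of 0.04998, lost its call when any array but 800K was left out (up to 0.151). SHMT2 lost its call without any array but 200K (up to 0.111). ALDH1L2 lost its call without the 100K array (0.0521), CBS without the 50K or 100K array (up to 0.0646) and GDF15 without the 50K, 100K or 600K array (up to 0.110). CHAC1, a glutathione-degrading enzyme, and SESN2, a leucine sensor, were highest at 400K (3.52 and 1.86) and had passed their peak at 600K (2.35 and 0.74), earlier than GARS1 and WARS1.

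Of 11 amino acid transporters, 1 rose, the glycine transporter SLC6A9, at 2.35 at 400K, 2.69 at 600K and 1.73 at 800K (slope 0.65 ± 0.14, limma adjusted p 0.0262; up to 0.0968 without the 50K, 100K or 600K array). It stands beside GARS1, the glycine enzyme, at 0.95, 1.07 and 0.49. The neutral amino acid transporters SLC1A4 (0.99 at 400K, adjusted p 0.164) and SLC1A5 (0.90 at 400K, adjusted p 0.238) were also highest at 400K or 600K. SLC7A11, the cystine transporter, read 0.87 at 400K and −1.504 at 800K (adjusted p 0.868).

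**Figure D4:**
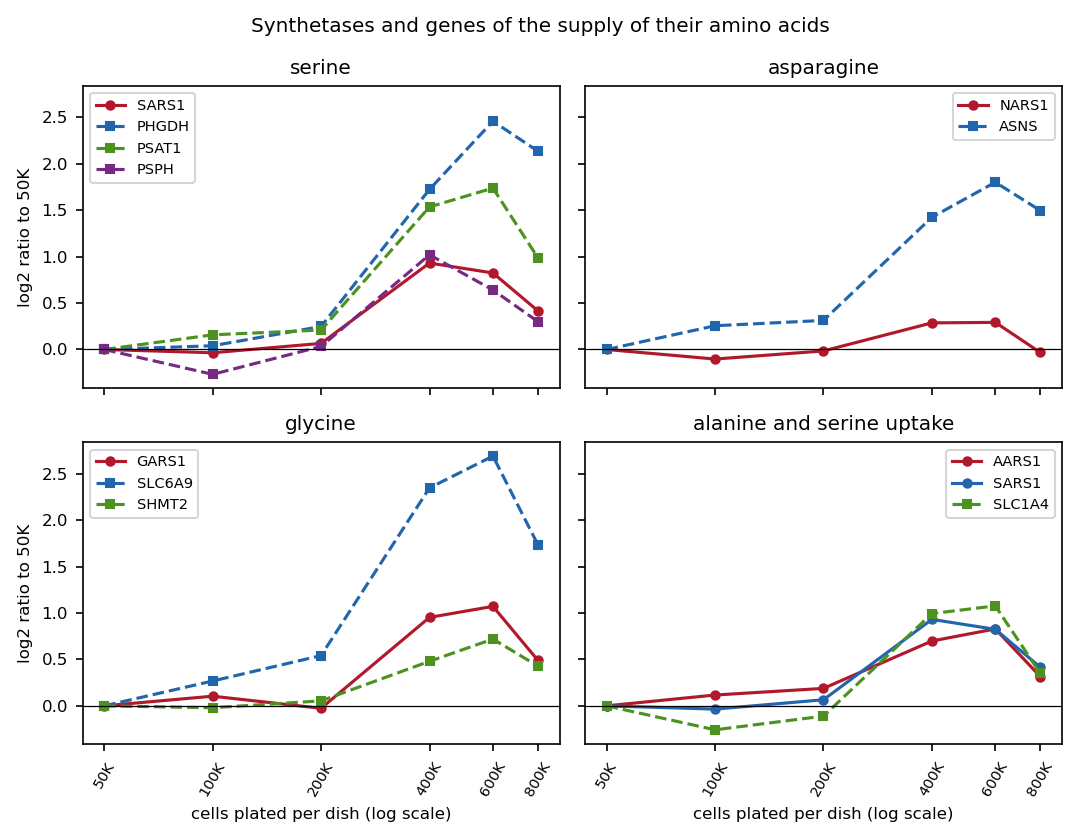
Log2 ratio to the 50K array (vertical axis) against cells plated per dish (horizontal axis, log scale) for synthetases (solid lines) and genes that make or carry the same amino acid (dashed lines), 1 array per density. PHGDH, ASNS and SLC6A9 reach 2.46, 1.80 and 2.69 at 600K, above SARS1, NARS1 and GARS1, and PSAT1 (1.74) also lies above SARS1. At 600K PSPH (0.64) lies below SARS1 (0.82) and SHMT2 (0.72) below GARS1 (1.07), while SLC1A4 runs close to AARS1 and SARS1.

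Genes of the general machinery of translation rose in about the share seen for all genes (8.93%), but among the initiation factors more fell than rose. Of 7 elongation factors 1 rose, EEF1A2 (0.19 ± 0.03, limma adjusted p 0.00597), and 0 fell, against 12.4% of all genes. Of 13 initiation factors and their inhibitor 4E-BP, 1 rose and 5 fell, the falls again against 12.4% of all genes. In 7 of the 13 the 3 high densities all lay below the 3 low ones, against 17.9% of all genes. Among those that fell were subunits of the exchange factor for eIF2, EIF2B2 (−0.18 ± 0.03, limma adjusted p 0.0119), EIF2B4 (−0.11 ± 0.02, adjusted p 0.00874) and EIF2B3 (−0.20 ± 0.04, adjusted p 0.0191; up to 0.0797 without the 100K, 600K or 800K array). EIF4G1, a scaffold, fell too (−0.22 ± 0.04, adjusted p 0.0168; up to 0.0600 without the 100K, 600K or 800K array). EIF4EBP1, which encodes 4E-BP and is a known ATF4 target, differed from these, at 0.84, 1.07 and 0.39 at 400K, 600K and 800K (adjusted p 0.125).

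Because WARS1 also responds to interferon-gamma, genes of that response were examined beside it. Of 11 measured, WARS1 included, 4 rose and 1 fell. GBP1, among the strongest interferon-gamma targets, fell, with log2 ratios of −0.16, −0.45, −0.63, −0.90 and −0.92 from 100K to 800K (slope −0.24 ± 0.02, limma adjusted p 0.00101). The other genes that rose with WARS1 were IRF1, GBP2 and IDO1. IRF1 rose to 0.61 at 800K (0.13 ± 0.02, adjusted p 0.0105; 0.0726 without the 50K array) and GBP2 to 0.67 (0.16 ± 0.04, adjusted p 0.0382; up to 0.143 without the 50K, 100K, 600K or 800K array). IDO1, an enzyme that degrades tryptophan, rose to 0.44 (0.12 ± 0.02, adjusted p 0.0202; up to 0.106 without the 50K, 600K or 800K array). All 3 were highest at 800K, while WARS1 was highest at 600K, and the calls of all 3 were lost with 3 against 3 densities (limma adjusted p 0.161, 0.0798 and 0.170).

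Among all genes whose log2 values spanned at least 1 (1256 outside the set), the 12 whose profile was most like the mean of the 9 were ranked by Pearson r over the 6 arrays, which share the 50K baseline. PSAT1, the aminotransferase of serine synthesis, came first (r = 0.999), followed by SLC6A9 (0.992), EIF4EBP1 (0.986), PCK2 (0.978), SLC1A4 (0.976), CAPN8 (0.973), ECM2 (0.972), ALDH1L2 (0.966), CBS (0.962), NUPR1 (0.961), LINC02806 (0.958) and ASNS (0.956). PSAT1 read 0.16, 0.21, 1.54, 1.74 and 0.99 from 100K to 800K, the shape of the synthetases at a larger amplitude. PCK2, the mitochondrial phosphoenolpyruvate carboxykinase, reached 2.08 at 600K, and ECM2, which encodes an extracellular matrix protein, 1.90 at 400K. Likeness over 6 arrays is a description of these profiles.

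The promoter letters were also read against expression outside the set. Among genes with TGATGCAA in the window, the 9 left out, 21 of 141 (14.9%) were 1.5-fold or more over 50K at 400K, against 470 of 15236 (3.08%) without it. At 600K the shares were 22 of 141 (15.6%) and 757 of 15236 (4.97%). All 3 high densities lay above the 3 low ones in 19.9% of genes with TGATGCAA, against 14.4% without it. The median log2 ratio at 400K was 0.03 with and 0.02 without the letters, so most genes that held them did not stand apart. With the looser TGATGNAA, 33 of 552 (5.98%) were 1.5-fold or more at 400K, against 458 of 14825 (3.09%) without it. At 600K the shares for the looser form were 7.97% and 4.96%. All 3 high densities lay above the 3 low ones in 14.3% with the looser form, against 14.4% without it. The differences between these shares were not tested. Within the set, the 3 measured genes with TGATGCAA (AARS1, IARS1 and NARS1) read 0.70, 0.36 and 0.29 at 400K, GARS1 with the looser form read 0.95, and the 3 with neither form (EPRS1, SARS1 and WARS1) read 0.70, 0.93 and 0.52.

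Markers of other cell types were set against the 8.93% of all genes that rose and the 12.4% that fell. Of fibroblast markers 1 of 8 rose (DCN), of endothelial markers 2 of 6 (PECAM1 and KDR) and of leukocyte markers 1 of 5 (CD14), with 0 falling in each list. The calls of DCN, PECAM1 and KDR were lost without the 50K, 100K, 600K or 800K array (limma adjusted p up to 0.228, 0.100 and 0.156), and those of DCN and KDR also without the 200K array. CD14, which epithelial cells can also express, was 2.45 at 400K and 2.57 at 600K (slope 0.74 ± 0.08, limma adjusted p 0.00355). The median log2 ratios of these 3 lists lay between 0.04 and 0.21 at 400K and 600K. Of 7 breast epithelial markers 3 rose (CDH1, KRT5 and KRT14) and 1 fell (ITGA6, whose call held without the 200K array and was lost without any other, up to 0.250). Their part in the synthetase values was not tested, and in bulk RNA fewer cells of a type and less RNA per cell cannot be told apart.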

How the data were processed

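Per the labels, 200 ng of total RNA, taken up with phenol and chloroform, were labelled with biotin for each of 6 arrays. RMA is named in the submitters' processing notes, with no version. What the authors deposited is, for each probe set, the linear ratio of an array to the 50K array, whose own values equal 1 within a tolerance of 1e-06; the sources used here do not say how the ratio was formed. Ratios carry no level, so no filter on low values and no mean-variance trend was used.

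Of 54675 probe sets, 62 controls were left out, 41091 had 1 gene symbol in the platform annotation and were used, 1801 had several and 11777 were not listed. A gene is the mean log2 ratio of its probe sets. Symbols were matched by gene identifier to RefSeq for 41043 probe sets. Slopes (4 residual degrees of freedom) and quadratic terms (3) were fitted over all genes with limma 3.58.1 in R 4.3.3, two-sided, with Benjamini-Hochberg adjustment. Tested on simulated data with the spread of the 19775 genes, the slope fit recovered 84% of 100 genes changed 2-fold over the range and 98% of 100 changed 4-fold; 10 unchanged genes were called.

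Picked by rule were all 10 synthetases, the 12 nearest profiles and genes of each other list. From each list the rule took up to 4 genes past the test, and the 3 with the largest size of log2 ratio at 400K. Not every gene that the rule picked is described above. TARS1, WARS2, ATF3, ATF4, ATF5, CEBPG, DDIT3, EIF2AK4, SHMT2, SLC7A11 and PSPH (plotted only) were added by hand once their values had been seen. The synthetases and all lists were chosen with earlier results of these data known. Alternatives were the choice of probe sets, centring, the scale of density, robust variances, another baseline, 3 against 3 densities, and leaving out each array; leaving out arrays in the 3 against 3 fit was added after seeing the data.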

Additional observations from a re-analysis of the deposited data

How the results depend on the processing

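No paired analysis was possible because each density has 1 array and the labels give no replicate that links arrays. Among 49 named genes, 205 of 294 slopes with an array left out and 315 of 382 under the other alternatives kept their direction and their side of the threshold; 88 and 59 kept the direction but lost the call, 1 and 5 gained it, and 0 and 3 reversed. The reversed slopes were those of GDF15 (−0.0055 without probe sets ending in _x_at or _s_at and −0.0027 with the median of its probe sets) and DCN (−0.0021 without those probe sets). The 4220 genes with a slope past the threshold became 2664 without those probe sets, 2259 with 3 against 3 densities and 2388 to 3909 with an array left out; the 1765 rising genes became 1157, 908 and 1026 to 1627. Of the synthetases, 3 rose in the fit as reported, 1 without those probe sets, 1 after centring, 6 with 3 against 3 densities and 0 to 3 with an array left out. The 6 of the 3 against 3 fit became 0 to 6 with an array left out, an alternative chosen after seeing the data. Without those probe sets, which left 5 synthetases, 3 were 1.5-fold or more at 600K, 1 at 800K and 4 had no overlap between high and low densities. After centring, 1 was 1.5-fold or more at 800K. The shares of all genes under these settings are not given here, so the counts show only how the set moved. Under each of the 4 alternatives run, their median log2 ratios at 400K, 600K and 800K moved by less than the median of their moderated residual SDs. Curvature passed for 0 genes under each alternative. With 1 array per density and no intensities, neither dish-to-dish error nor signal over background can be given.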
